A study of Nothobranchius furzeri with 12 samples.

Results

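The 10 genes described here belong to the visual cycle, the pathway that renews the light-absorbing chromophore of the eye, and were followed in the retina of ageing killifish. The set held 10 of the 25122 genes in the count table: rpe65, lrata, rdh5, rgr, rgra, rlbp1, rlbp1a, rdh8a, rdh12 and rbp3. A gene was taken where its deposited name, or the NCBI symbol of its locus number, was on that list. The names rpe65, rdh5, rgr and rlbp1 stood in the table itself, and the other 6 genes were reached through their locus numbers. The NCBI table has no entry rpe65, rgr or rlbp1 but has rpe65a, rgrb and rlbp1b, and whether these are the same genes could not be checked from the names.

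Bulk RNA was sequenced from the retina with the attached retinal pigment epithelium (RPE) of 12 male turquoise killifish (Nothobranchius furzeri), a fish with a very short life span. The 4 ages were 1.5 and 3.0 months for the younger fish and 4.5 and 6.0 months for the older, with 3 untreated fish each. All fish came from a mutant line backcrossed to the GRZ strain; the labels name neither the mutated gene nor which fish carried the mutation, so whether carriers differed between the ages is not known and its part in the comparisons was not tested. Before RNA was isolated, the front of the eye (cornea, iris and lens) and its outer coats (choroid and sclera) were taken off, and each library was 1 fish.

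When a photon is absorbed, 11-cis-retinal in the photoreceptor opsin becomes all-trans-retinal. Photoreceptor dehydrogenases reduce it to retinol, a carrier in the matrix between the cells takes part in its transfer to the RPE, and RPE enzymes esterify it, isomerise it back to the 11-cis form and oxidise it to 11-cis-retinal. Mueller glia hold some of the same binding proteins and opsins and take part in a second route that serves cones.

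Libraries held from 34437141 to 50268318 counts. Levels below are CPM (counts scaled to a common library total) on library sizes scaled by the trimmed mean of M values, and since transcript lengths were not used, levels are compared between fish and not between genes. Of the listed marker genes, 16 of 27 rod, 14 of 27 cone, 13 of 17 melanin and 10 of 18 RPE symbols matched an entry. None of the matched rod, cone and melanin genes was at 0 in any of the 12 libraries. The RPE list gene serpinf1 was at 0 in at least 1 library. The summed level of 12 lens genes was 643.7 CPM in replicate 2 at 1.5 months, 1837 CPM in replicate 1 at 4.5 months and 12890 CPM in replicate 1 at 6.0 months, against at most 70.92 CPM elsewhere. Replicate 1 at 1.5 months stood apart in surface epithelium genes (5082 CPM, at most 715.9 CPM elsewhere) and in mural cell and fibroblast genes (7651 CPM, at most 1284 CPM elsewhere). The 4.5-month replicates 2 and 3 have Resub in their library names, a term left unexplained in the labels. A group of 4 libraries stood apart in ribosomal protein genes: the summed level of 79 cytosolic ribosomal protein genes was 18060 to 24710 CPM in replicate 2 at 3.0 months, replicates 2 and 3 at 4.5 months and replicate 2 at 6.0 months, and 38890 to 57580 CPM in the other 8. The same 4 libraries held the 4 lowest sums of the 13 melanin genes, 908.4 to 1515 CPM against 2246 to 3521 CPM.

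With age, no member of the set passed the threshold in any of the 6 tests over all 12 libraries without a covariate. For all 9 tested members the SD of single fish within an age exceeded the SD of the age means. Means of 3 fish vary less than single fish, so that comparison cannot decide whether a member differed with age. From 1.5 to 6.0 months, 7 of the 9 tested members had a log2 change below 0 and 2 above 0, with a median of -0.26, beside a median of -0.01 over all 20717 genes tested. The size of this shift depended on single fish, though its median stayed below 0 whichever fish was left out. The median was -0.04 without replicate 3 at 1.5 months (4 above 0) and -0.10 without replicate 2 at 6.0 months (3 above 0). It was -0.41 to -0.43 without replicate 1 at 1.5 months or replicate 1 or 3 at 6.0 months. The direction depended on the fit. With the melanin gene level as a covariate 8 of 9 were above 0 (median 0.24), and with the ribosomal protein gene level 4 of 9 (median -0.05). The mean log2 level of the melanin genes was itself higher in every fish at 1.5 months than in every fish at 6.0 months. The test was edgeR's quasi-likelihood test with Benjamini-Hochberg adjustment over all tested genes, called at an adjusted p under 0.05. It called 0 of 9 members between 6.0 and 1.5 months, where it called 2.78% of all genes. It called 0 of 9 for any difference among the 4 ages (2.21% of all genes), 0 of 9 for the slope per month (1.17%), 0 of 9 for 3.0 against 1.5 months (0.0193%), 0 of 9 for 4.5 against 3.0 months (0.319%) and 0 of 9 for 6.0 against 4.5 months (0.599%). Without adjustment, 2 members were under 0.05 for 4.5 against 3.0 months, rlbp1a and rdh8a, and 0 in the other 5 tests. DESeq2 also called 0 of 9 in each of the 6 tests, with 0 to 2 members under 0.05 unadjusted. Of all 20717 genes DESeq2 called 3189 for any age, 1911 between 6.0 and 1.5 months and 1140 for the slope. In the 3 steps from youngest to oldest it called 459, 935 and 1207. The shares of all genes under 0.05 without adjustment are not given here. All 3 steps between neighbouring ages missed the threshold for all 9 tested members, so no order of the age means given below was resolved beyond the spread between fish.

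**Figure D1:**
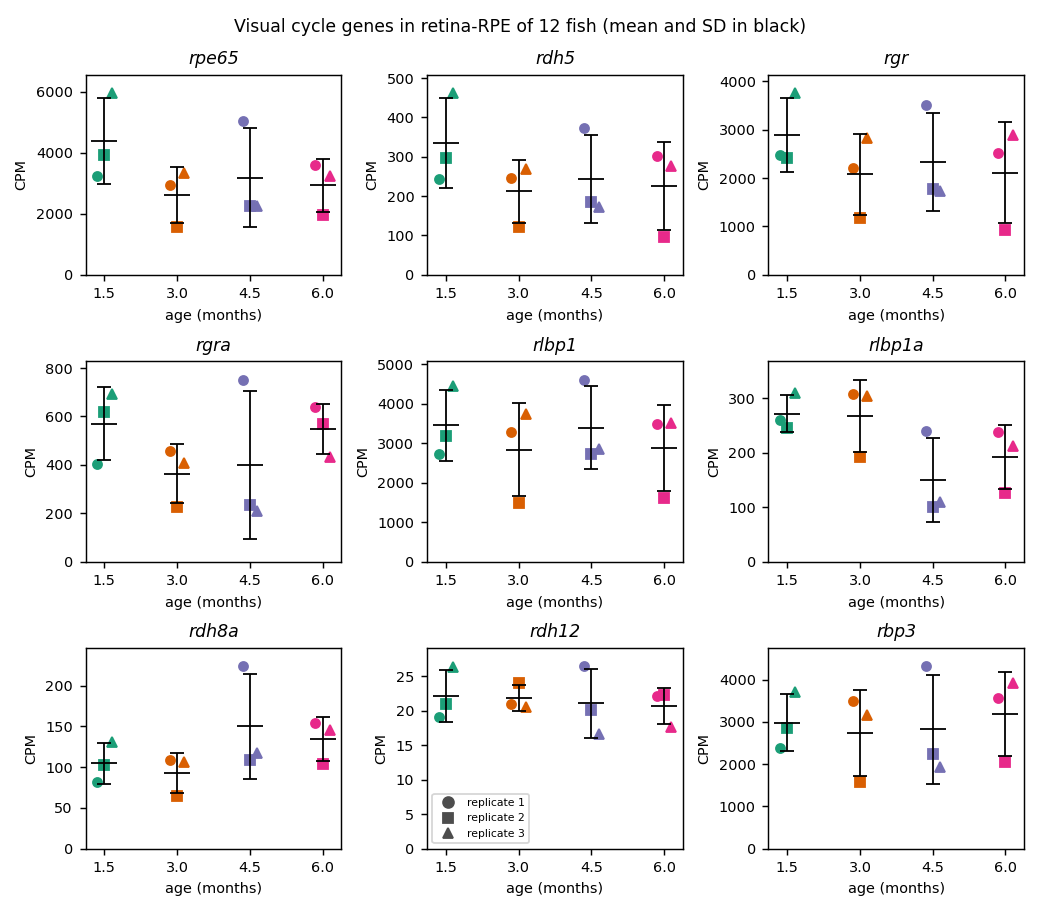
Level in CPM (vertical axis from 0) of the 9 detected genes by age in months, with 1 point per fish, marker shape for the replicate number, and the mean and SD of 3 fish in black. The SD bars of neighbouring ages overlap, and replicate 1 at 4.5 months and replicate 3 at 1.5 months are often the highest points.

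The RPE isomerase rpe65 turns retinyl esters into 11-cis-retinol. Its level was 3244, 3928 and 5964 CPM in the 3 fish at 1.5 months, 2942, 1569 and 3342 CPM at 3.0 months, 5047, 2243 and 2244 CPM at 4.5 months, and 3586, 1959 and 3241 CPM at 6.0 months. Replicate 3 at 1.5 months was highest and replicate 2 at 3.0 months lowest, 3.80-fold apart, and each age overlapped every other age that was compared with it. The mean was 4379 ± 1415 CPM (SD, n = 3) at 1.5 months and 2929 ± 858 CPM (SD, n = 3) at 6.0 months. The log2 change of -0.58 ± 0.39 (SE) had a 95% interval of -1.44 to 0.28 and an adjusted p of 0.434 (edgeR). The age means were ordered 1.5, 4.5, 6.0 and 3.0 months from high to low. In bulk tissue, fewer RPE cells in a library and less RNA of the gene per cell cannot be told apart.

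The acyltransferase lrata, a member of the family that makes the retinyl esters rpe65 uses, had 0 counts in all 12 libraries. A floor of 3 counts per library put its level under 0.057 to 0.087 CPM, and it was the member left out of the tests. Reads of this enzyme family were counted at other entries, which were looked at after their values were seen. The entry lratb.1 had 34.9 ± 2.0, 48.0 ± 0.7, 36.0 ± 1.5 and 47.9 ± 8.1 CPM (mean ± SD, n = 3) at the 4 ages from youngest to oldest. Its means thus were lower at 1.5 and 4.5 months than at 3.0 and 6.0 months, but these tests missed the threshold. The adjusted p was 0.0663 for any difference among ages and 0.177, 0.146 and 0.126 for the steps in order (edgeR). The entry lratb.2 averaged 137, 110, 133 and 116 CPM at the 4 ages, with an adjusted p of 0.867 (edgeR).

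The dehydrogenase rdh5 makes 11-cis-retinal from 11-cis-retinol in the RPE. It measured 243.5, 296.5 and 462.8 CPM at 1.5 months, 247.2, 121.1 and 269.1 CPM at 3.0 months, 373.5, 186.2 and 173.2 CPM at 4.5 months, and 302.4, 97.3 and 277.1 CPM at 6.0 months. The fish ranked much as for rpe65, with the 3.0-month replicate 2 low again and the 6.0-month replicate 2 lowest, and the ages overlapped. The highest library was 4.76-fold above the lowest, the widest range of the 9 detected members. Between 6.0 and 1.5 months the log2 change was -0.57 ± 0.47 (95% interval -1.59 to 0.46, adjusted p 0.526 by edgeR). The age means had the same order as those of rpe65.

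A pair of opsins of the RPE and Mueller glia, rgr and rgra, bind all-trans-retinal and are thought to form 11-cis-retinal in the light. The deposited rgr measured 2469, 2414 and 3762 CPM at 1.5 months, 2212, 1184 and 2825 CPM at 3.0 months, 3499, 1769 and 1727 CPM at 4.5 months, and 2521, 921.3 and 2885 CPM at 6.0 months. It followed the pattern of rpe65 and rdh5, with overlap between all ages compared. The log2 change from 1.5 to 6.0 months was -0.45 ± 0.45 with an adjusted p of 0.604 (edgeR).

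The paralogue rgra measured 403.3, 616.5 and 692.1 CPM at 1.5 months, 457.8, 224.5 and 408.9 CPM at 3.0 months, 752.4, 234.9 and 208.8 CPM at 4.5 months, and 637.3, 568.1 and 434.0 CPM at 6.0 months. Here replicate 2 at 6.0 months, lowest of all for rgr, ranked above 7 other fish. The log2 change from 1.5 to 6.0 months was -0.06 ± 0.46 (95% interval -1.06 to 0.94, adjusted p 0.953 by edgeR). From 4.5 to 6.0 months it was 0.45 ± 0.46 (adjusted p 0.680 by edgeR), a step in which 0.174% of all genes were called higher. Without replicate 1 at 4.5 months it was 1.30 ± 0.31 with an adjusted p of 0.0391 (edgeR), in a fit that called 5.34% of all genes. The 4.5-month fish in that fit, replicates 2 and 3, were the Resub libraries with low ribosomal protein and melanin levels. How reads shared by such paralogues were counted is not given in the sources used here.

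The retinaldehyde-binding proteins rlbp1 and rlbp1a encode cellular carriers of 11-cis-retinoids in RPE and Mueller glia. The deposited rlbp1 measured 2733, 3174 and 4446 CPM at 1.5 months, 3279, 1495 and 3739 CPM at 3.0 months, 4614, 2724 and 2846 CPM at 4.5 months, and 3500, 1615 and 3510 CPM at 6.0 months. All ages compared overlapped, and the log2 change from 1.5 to 6.0 months was -0.26 ± 0.38 (adjusted p 0.738 by edgeR).

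The paralogue rlbp1a measured 259.9, 245.2 and 310.2 CPM at 1.5 months, 308.1, 192.0 and 305.1 CPM at 3.0 months, 239.8, 101.1 and 110.0 CPM at 4.5 months, and 239.1, 127.0 and 213.4 CPM at 6.0 months. All 3 fish at 6.0 months lay below all 3 at 1.5 months. That was 1 of 9 members without overlap in this comparison, against 30.6% of all genes tested, and 0 of 9 in each of the steps from 1.5 to 3.0 (21.5%), 3.0 to 4.5 (18.3%) and 4.5 to 6.0 months (21.1%). The log2 change was -0.49 ± 0.34 (95% interval -1.23 to 0.25, adjusted p 0.440 by edgeR). The lowest adjusted p of any member belonged to rlbp1a, 0.275 for any difference among ages (edgeR), with a log2 change of -0.84 ± 0.34 from 3.0 to 4.5 months (adjusted p 0.282), where 0.203% of all genes were called lower. Without replicate 1 at 4.5 months, a library with lens RNA, that step was -1.35 ± 0.27 with an adjusted p of 0.0230 (edgeR) in a fit that called 3.67% of all genes, and the 2 fish then left at 4.5 months were the Resub libraries with low ribosomal protein and melanin levels.

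**Figure D2:**
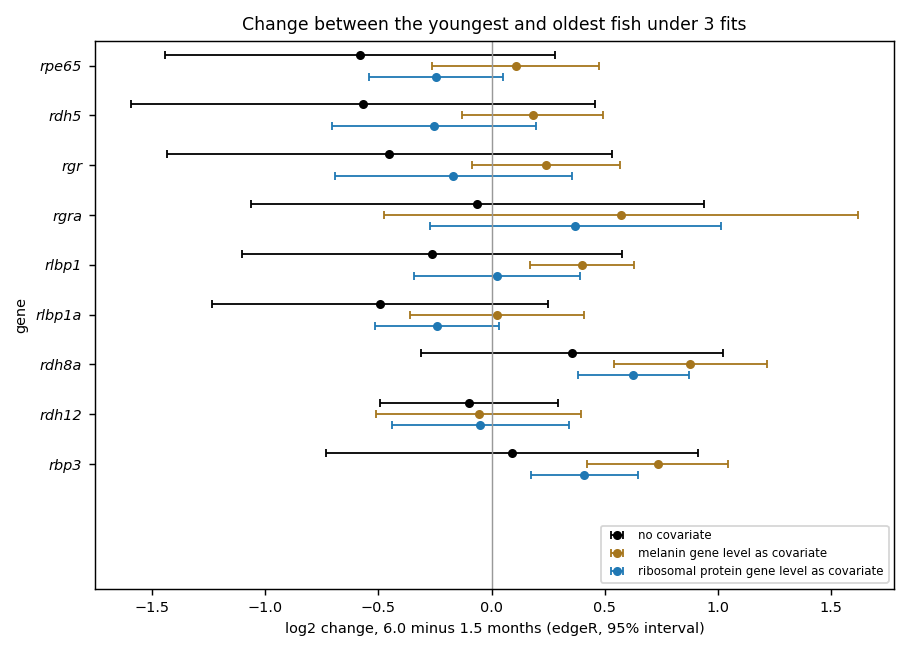
Log2 change between 6.0 and 1.5 months (horizontal axis, points with 95% intervals) for the 9 tested genes in 3 edgeR fits. Without a covariate all 9 intervals cross 0; with the melanin or the ribosomal protein gene level as a covariate those of rdh8a and rbp3 lie above 0, and with melanin also that of rlbp1.

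Photoreceptor dehydrogenases clear all-trans-retinal after light. In mammals the outer-segment enzyme RDH8 and the inner-segment enzyme RDH12 share this role. The gene rdh8a measured 81.2, 102.2 and 131.4 CPM at 1.5 months, 108.9, 64.4 and 105.9 CPM at 3.0 months, 223.6, 108.2 and 117.9 CPM at 4.5 months, and 154.3, 103.5 and 145.1 CPM at 6.0 months. It was the member with the most positive log2 change from 1.5 to 6.0 months, 0.36 ± 0.30 (95% interval -0.31 to 1.02, adjusted p 0.542 by edgeR), and its ages overlapped. From 3.0 to 4.5 months it differed by 0.69 ± 0.31 (adjusted p 0.325 by edgeR).

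The gene rdh12 was the steadiest member. It measured 19.2, 20.9 and 26.4 CPM at 1.5 months, 21.1, 24.0 and 20.5 CPM at 3.0 months, 26.4, 20.1 and 16.6 CPM at 4.5 months, and 22.1, 22.3 and 17.6 CPM at 6.0 months. The highest library was 1.59-fold above the lowest, and the log2 change from 1.5 to 6.0 months was -0.10 ± 0.18 (95% interval -0.49 to 0.29, adjusted p 0.791 by edgeR). Its counts ranged from 725 to 1246.

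The interphotoreceptor retinoid-binding protein rbp3 is secreted by photoreceptors into the matrix that faces the RPE and carries retinoids there. It measured 2372, 2860 and 3708 CPM at 1.5 months, 3485, 1565 and 3154 CPM at 3.0 months, 4312, 2230 and 1930 CPM at 4.5 months, and 3557, 2047 and 3924 CPM at 6.0 months. The low fish were the same 4 that were low in ribosomal protein genes, and the ages overlapped. The log2 change from 1.5 to 6.0 months was 0.09 ± 0.38 (95% interval -0.73 to 0.91, adjusted p 0.915 by edgeR). Over the same ages the summed level of 17 rod entries was 10750 to 14180 CPM at 1.5 months and 5850 to 8843 CPM at 6.0 months, and that of 14 cone genes 32940 to 34450 CPM and 18340 to 27230 CPM. The part of photoreceptor content in the age change of rbp3 was not tested.

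For rpe65 the SD of single fish within an age was 0.55 on the log2 scale, and the SD of the 4 age means 0.33. For rbp3 they were 0.53 and 0.12, and for rlbp1a, where they were closest, 0.47 and 0.45. The age means are each of 3 fish and vary less than single fish, so the 2 values are not like measures. Members moved together by library. Replicate 2 at 3.0 months and replicate 2 at 4.5 months each held 8 of the 9 members among their 4 lowest values, and replicate 3 at 4.5 months and replicate 2 at 6.0 months each held 7 of 9. Replicate 1 at 4.5 months held 8 of 9 among the 2 highest values and replicate 3 at 1.5 months 7 of 9. The share of all genes low or high in these libraries is not given here. The pattern is thus not shown to be particular to the members.

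**Figure D3:**
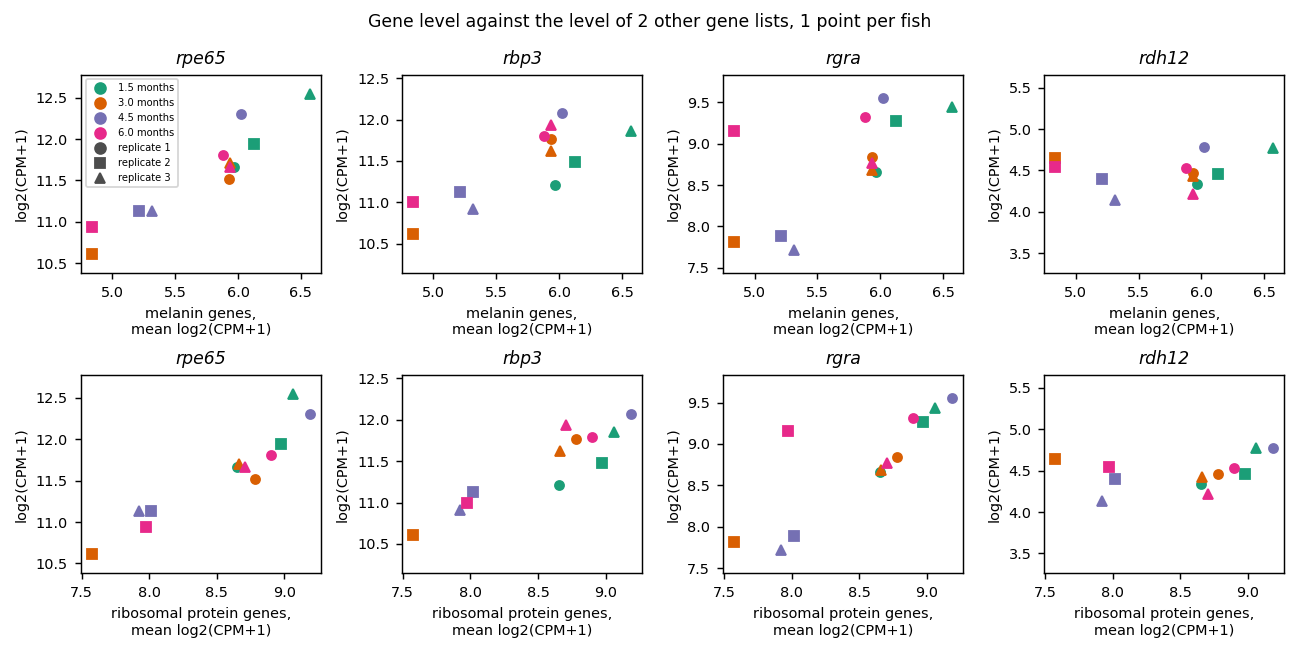
Level of 4 genes (vertical axis, log2(CPM+1)) against the mean log2(CPM+1) of the melanin genes (upper row) and of the ribosomal protein genes (lower row), with 1 point per fish, colour for age and shape for replicate number. A group of 4 libraries form a low cluster on both lists, in which rpe65 and rbp3 are also low, while rdh12 overlaps between the clusters and rgra is low in 3 of the 4.

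Because the libraries fell into these separate clusters, no correlation of a member with a marker list over all 12 is given here, and the low cluster of 4 is too small for one. Within the other 8 libraries, 0 of 45 relations of a member with a marker list passed an adjusted p of 0.05 in exact permutation tests of Pearson's r, and 9 were under 0.05 unadjusted. Of these 9, 4 were with the Mueller glia list, 3 with the RPE list and 2 with the melanin list. Without the 2 libraries farthest from the list's median, r with the RPE list fell to 0.44 for rpe65, 0.03 for rdh5 and -0.02 for rgr. For rdh5 it fell to 0.43 with the melanin list and 0.36 with the Mueller glia list. For rdh12 and the Mueller glia list it fell to 0.24. For rpe65 and the melanin list, r was 0.82 and rho 0.67 (exact permutation p 0.0198 and 0.0831, adjusted 0.127 and 0.623, n = 8), and r was 0.63 without the 2 libraries farthest from the list's median. With the Mueller glia list rpe65 had an r of 0.88 and a rho of 0.83 (exact permutation p 0.00303 and 0.0154, adjusted 0.0725 and 0.413, n = 8), and 0.56 without 2 libraries. For rgra and the Mueller glia list, r was 0.87 and rho 0.81 (exact permutation p 0.00322 and 0.0218, adjusted 0.0725 and 0.413, n = 8), and 0.72 without 2 libraries. For rbp3 and the rod list, r was -0.36 and rho -0.17 (exact permutation p 0.386 and 0.703, adjusted 0.652 and 0.931, n = 8), and -0.25 without 2 libraries. With the cone list rbp3 had an r of -0.50 and a rho of -0.43 (exact permutation p 0.204 and 0.299, adjusted 0.511 and 0.894, n = 8), and -0.45 without 2 libraries.

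The ribosomal protein list, added after the data were seen, gave a further family of 10 relations within the 8 libraries. For rgra, r was 0.97 and rho 0.98 (exact permutation p 9.92e-05 and 0.000422, adjusted 0.000992 and 0.00422, n = 8), and r was 0.96 without 2 libraries. For rdh12, r was 0.88 and rho 0.86 (exact permutation p 0.0037 and 0.0107, adjusted 0.0185 and 0.0358), falling to 0.62 without 2 libraries. For rpe65, r was 0.85 and rho 0.76 (exact permutation p 0.00632 and 0.0368, adjusted 0.0211 and 0.0919), and 0.70 without 2 libraries. For rdh5, r was 0.82 and rho 0.88 (exact permutation p 0.00868 and 0.00727, adjusted 0.0217 and 0.0358), and 0.72 without 2 libraries. The other 5 members did not pass by Pearson's r, and rlbp1a was at -0.08. The share of all genes that would pass against this list in the 8 libraries is not given here. These relations are thus not shown to be particular to the members. These relations span ages, and ages hold too few of the 8 libraries for a value within each.

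**Figure D4:**
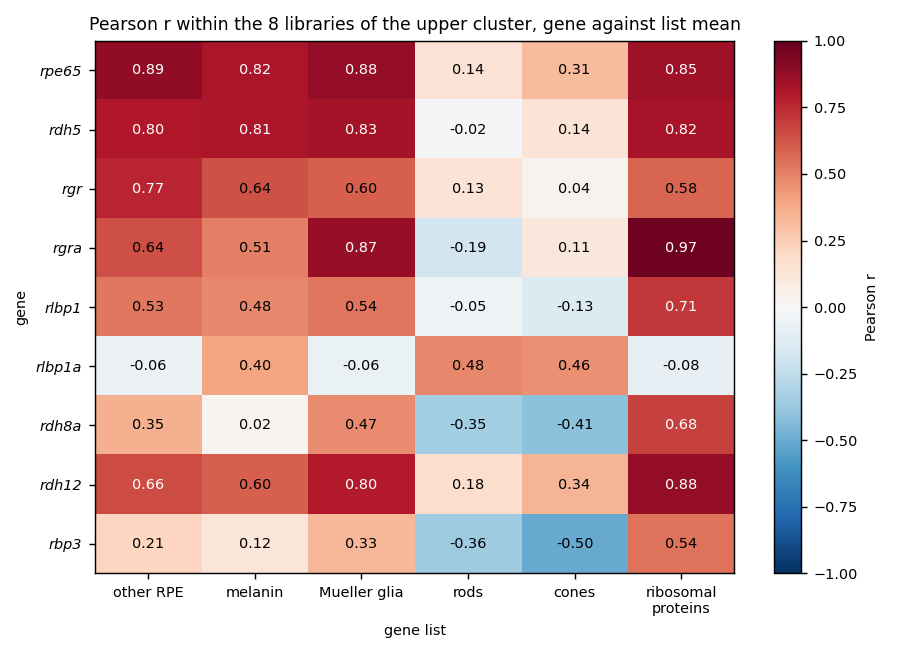
Pearson r within the 8 libraries outside the low cluster, between the log2(CPM+1) of each member (rows) and the mean log2(CPM+1) of each gene list (columns), coloured from -1 to 1. The values for rpe65 and rdh5 are high for the RPE, melanin, Mueller glia and ribosomal protein lists and near 0 for rods. Without the 2 libraries farthest from the list's median, r with the RPE list fell to 0.44 for rpe65 and 0.03 for rdh5. The gene rlbp1a stands apart with values near 0 for the ribosomal protein and Mueller glia lists.

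A pair of covariate fits, chosen after seeing the data, gave the age changes with the library's melanin or ribosomal protein gene level held in the model. The level of either list was measured in the same libraries. The low cluster held 0, 1, 2 and 1 fish at the 4 ages from youngest to oldest, so age and these levels were partly confounded. The melanin covariate, a mean of log2(CPM+1), was 5.968, 6.128 and 6.573 in the 3 fish at 1.5 months. It was at most 5.933 at 3.0 months and at most 5.934 at 6.0 months. Changes from 1.5 months to these ages in the melanin fit cannot be told apart from this age difference in the covariate. With the melanin level, rdh8a was higher at 6.0 than at 1.5 months by 0.88 ± 0.15 on the log2 scale (adjusted p 0.0140, edgeR) and rbp3 by 0.73 ± 0.14 (adjusted p 0.0205, edgeR), 2 of 9 members against 4.14% of all genes. With the ribosomal protein level, the same 2 members passed, rdh8a at 0.63 ± 0.11 (adjusted p 0.00964, edgeR) and rbp3 at 0.41 ± 0.11 (adjusted p 0.0426, edgeR), against 7.51% of all genes.

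From 3.0 to 4.5 months, rlbp1a was lower in both covariate fits, by a log2 change of -0.86 ± 0.16 with melanin (adjusted p 0.0191, edgeR) and -0.95 ± 0.12 with ribosomal protein genes (adjusted p 0.00320, edgeR). In that step rdh8a was higher by 0.70 ± 0.13 (adjusted p 0.0223, edgeR) and 0.62 ± 0.11 (adjusted p 0.0108, edgeR). These were 2 of 9 members in each fit, with 3.02% and 4.54% of all genes called. At 4.5 months replicates 2 and 3 were the Resub libraries and replicate 1 held lens RNA. The part of these library traits in the step was not tested in the covariate fits. For any difference among ages, rlbp1a, rdh8a, rlbp1 and rbp3 passed with melanin (4 of 9, 7.47% of all genes), and rlbp1a and rdh8a with ribosomal protein genes (2 of 9, 11.1% of all genes). The slope called rdh8a in both (1 of 9, with 1.17% and 2.37% of all genes), and 0 of 9 passed in both fits for 3.0 against 1.5 months (0.0483% and 0.154% of all genes) and for 6.0 against 4.5 months (4.99% and 6.14%). The members rpe65, rdh5, rgr, rgra and rdh12 passed none of the 6 tests in either fit.

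**Figure D5:**
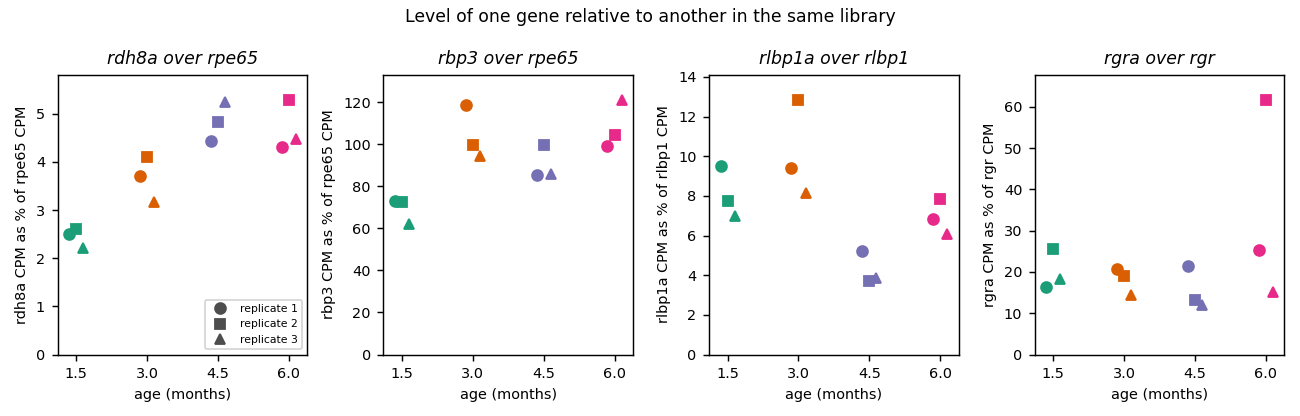
Level of one member as a percent of another in the same library (vertical axis, from 0) by age in months, with 1 point per fish and shape for replicate number. The ratios of rdh8a and rbp3 to rpe65 are lowest in the 3 fish at 1.5 months, and the ratio of rlbp1a to rlbp1 is lowest in the 3 fish at 4.5 months.

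Ratios of members within a library, chosen after their values were seen and given with no test, show the same fish from another side. The level of rdh8a was 2.20% to 2.60% of that of rpe65 at 1.5 months, 3.17% to 4.10% at 3.0 months, 4.43% to 5.25% at 4.5 months and 4.30% to 5.29% at 6.0 months. All fish at 4.5 and 6.0 months lay above all at 3.0 months, and those above all at 1.5 months. How often other gene ratios separate in this way was not computed, and of single genes 18.3% to 30.6% did not overlap between the ages compared. The level of rbp3 was 62.2% to 73.1% of rpe65 at 1.5 months, and 94.4% to 118.5%, 85.4% to 99.5% and 99.2% to 121.1% at the later ages. Every fish of the later ages lay above the 1.5-month fish, while the later ages partly overlapped. Both ratios share the denominator rpe65, whose mean level was highest at 1.5 months. The ratio of rlbp1 to rpe65 was also low there, at 74.6% to 84.3%, against 95.3% to 111.9%, 91.4% to 126.8% and 82.4% to 108.3% later. That of rdh12 was 0.44% to 0.59%, against 0.61% to 1.53%, 0.52% to 0.90% and 0.54% to 1.14%. Those of rdh5 and rgr at 1.5 months overlapped each later age.

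The level of rlbp1a relative to rlbp1 was 6.98% to 9.51% at 1.5 months, 8.16% to 12.8% at 3.0 months, 3.71% to 5.20% at 4.5 months and 6.08% to 7.87% at 6.0 months. The 4.5-month fish lay below all others. For rgra relative to rgr the range was 12.1% to 25.5% in 11 fish and 61.7% in replicate 2 at 6.0 months. That fish had the lowest rgr and rdh5 levels of all. Of the 8 ratios computed, the one of rdh5 to rpe65 varied least, at 7.40% to 8.55% in 11 fish and 4.97% in the same fish.

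By Pearson's r of log2(CPM+1) over the 12 libraries, which spans both clusters and is given only to rank genes, the 5 most similar of 11502 named genes to rpe65 were gstt1b (0.979), rpl21 (0.971), mplkip (0.969), comt (0.969) and eif3f (0.968). Among members rdh5 came 29th (0.951), rgr 164th (0.915) and rlbp1 244th (0.895). For rbp3 the 5 were tmem98 (0.978), stra6 (0.968), rpl35a (0.967), rps25 (0.963) and rpl14 (0.960). The gene stra6 encodes the receptor that takes up retinol from its blood carrier.

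Of 66 other visual cycle and retinoid genes listed, 33 matched an entry and 31 were tested. Between 6.0 and 1.5 months 0 were higher and 2 were lower, dhrs7cb and degs1, beside 1.75% of all genes higher and 1.02% lower, and the median log2 change of the 31 was -0.19. The same 2 were lower at 6.0 than at 4.5 months, where 0.425% of all genes were lower. In that step dhrs7cb passed in 8 of 12 fits that left out 1 library and degs1 in 2 of 12, and neither passed without the Resub libraries (adjusted p 0.179 and 0.214, edgeR). The degs1 step also missed with relative log expression factors (adjusted p 0.0502), with no filter on low counts (0.0592) and without the 3 libraries with lens RNA (0.0984). Both also passed for any difference among ages, where 2.21% of all genes were called. That call held for dhrs7cb in 5 of 12 fits that left out 1 library and for degs1 in 2 of 12. For the slope and the other 2 steps 0 of 31 passed.

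The gene dhrs7cb, of the short-chain dehydrogenase family, measured 20.02, 15.62 and 18.55 CPM at 1.5 months and 7.15, 8.60 and 10.56 CPM at 6.0 months. The groups did not overlap, and the log2 change was -1.04 ± 0.16 (adjusted p 0.0183, edgeR), which passed in 8 of 12 fits that left out 1 library. It missed there without replicate 1 or 3 at 1.5 months and without replicate 1 or 2 at 6.0 months, with adjusted p up to 0.0880, and without the 3 libraries with lens RNA (adjusted p 0.0570). The sphingolipid desaturase degs1, which work in chicken retina proposed as a retinol isomerase of Mueller glia, measured 99.7, 83.6 and 88.8 CPM at 1.5 months and 65.1, 63.8 and 67.9 CPM at 6.0 months. Its log2 change was -0.47 ± 0.10 (adjusted p 0.0354, edgeR), and it passed in 3 of the 12 fits, those without replicate 1 or 2 at 3.0 months or replicate 1 at 4.5 months, and not without the 3 libraries with lens RNA (adjusted p 0.0844). Rod list sums were lower at 6.0 months too, and their part in these changes was not tested.

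Among the most abundant genes of that list were rbp4l, rbp5, stra6 and the photoreceptor retinoid transporter gene abca4b. These 4 did not pass in any of the 6 tests, with log2 changes from 1.5 to 6.0 months of -0.20 ± 0.31 for rbp4l, -0.19 ± 0.36 for rbp5, 0.12 ± 0.38 for stra6 and -0.48 ± 0.28 for abca4b (adjusted p 0.370 to 0.880, edgeR).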

How the data were processed

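Per-gene counts in 12 libraries were analysed as deposited; the deposited normalized table (signal: count plus 1 over a size factor, 100.0% of shared values within 0.001) was only checked. The sources used here do not give the aligner, annotation or genome build. Of counts from 1 to 20, 73.16% were even, so both mates were apparently counted and counts are not independent molecules. The members and lists were chosen with earlier results of these data known. NCBI symbols (table of assembly NfurGRZ-RIMD1, used for names only) were found for 5257 of 14589 locus-number entries. In edgeR 4.0.16 (R 4.3.3), filterByExpr (minimum count 10, minimum total 15) kept 20717 genes and 99.98% of counts. Scaling was by the trimmed mean of M values, and all 12 libraries shared one estimate of spread (common biological coefficient of variation 0.306, 8 residual degrees of freedom). The SE is the absolute log2 change over the square root of F, and the 95% interval uses the t distribution. P-values rest on the spread between 3 fish per age. DESeq2 1.42.0 and the other settings under the closing section were alternatives. Pearson's r used log2(CPM+1), with exact permutations for 8 libraries; the list's own mean leaves the member out. Named other genes were those past the threshold in any of 6 tests plus the 5 with the highest mean (1 of these genes is not reported here); similar genes were the 5 with the highest r among named genes of at least 5 CPM; lratb.1, lratb.2 and the ratios were added after seeing values. The edgeR test without a covariate was checked on simulated counts, for the oldest against the youngest age only. Apart from the genes set to change, the simulated libraries shared one mean profile, with no clusters and no lens RNA in single libraries. The check therefore cannot show error rates for libraries that differ as these do. The other comparisons, the alternative fits and DESeq2 were not checked in this way. Replicate numbers were used as a pairing only in an alternative fit with a replicate block. Deviations from the age mean correlated at -0.315 to 0.302 in 18 same-number pairs of libraries (median 0.09, 8 over 0.1). In 36 pairs of different number they correlated at -0.398 to 0.469 (median -0.044, 7 over 0.1).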

Additional observations from a re-analysis of the deposited data

How the results depend on the processing

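Over 20717 genes, edgeR called 458, 575, 242, 4, 66 and 124 for any age, 6.0 against 1.5 months, slope, and the 3 steps in order, against 3189, 1911, 1140, 459, 935 and 1207 by DESeq2. Relative log expression factors gave 100 for 4.5 against 3.0 months. Without the 3 libraries with lens RNA the counts were 0 for 6.0 against 1.5 months, 1 for the slope and 0, 441 and 199 for the steps. Without the Resub libraries they were 50 for any age and 1, 4 and 0 for the steps. Leaving out 1 library gave 7 to 2295, 8 to 1163, 15 to 350, 0 to 157, 2 to 760 and 0 to 1107 genes. It gave 0 to 2 members for any age (rgra and rlbp1a without 4.5 months replicate 1, adjusted p 0.0432 and 0.0261 by edgeR), 0 to 1 for 4.5 against 3.0 and for 6.0 against 4.5 months, and 0 to 0 elsewhere. The any-age test without 4.5 months replicate 1 was the one that called 2295 of the 20717 genes. Without the lens libraries 1 member, rlbp1a, passed for 4.5 against 3.0 months (log2 -1.35, adjusted p 0.0431 by edgeR). The melanin covariate gave 1547 genes for any age and 10, 626 and 1034 for the steps, the ribosomal one 2307, 1555, 492, 32, 940 and 1272. Members called with them were 4, 2, 1 and 2 (melanin) and 2, 2, 1 and 2 (ribosomal) for any age, 6.0 against 1.5 months, slope and 4.5 against 3.0 months. Of 900 member log2 changes under alternatives, 100 changed sign, over 38 of 45 results, and none was past the threshold before the change. Over all 12 libraries 17 of 45 marker relations passed, 22 with the age means subtracted and 16 with log2(CPM+0.1). With fewer libraries, 12 passed without the Resub libraries, 10 without the 2 libraries farthest from a list's median and 9 without the lens libraries. Within the 8 libraries of the upper cluster 0 passed, and rlbp1a with Mueller glia went to -0.063. The cause of these shifts was not tested.

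With a replicate block, 214 genes passed for any age, 141 for the slope, 10 for 3.0 against 1.5 months and 47 for 6.0 against 4.5 months, and 0 members. The block left degs1 at an adjusted p of 0.0559 for any age and 0.0667 for 6.0 against 4.5 months (edgeR). The numbers are not a pairing in the design.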
